A study of Homo sapiens with 27 samples.

Results

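Cells kept in a FAK inhibitor (FAKi) were compared with cells kept in DMSO over 4 days of sampling in a single additive model, in which day was a block and 1 FAKi effect per gene was estimated across days. The model used 24 of the 27 libraries of the series, 12 of FAKi and 12 of DMSO, at days 3, 7, 14 and 21. The genes described are protein-coding, passed an adjusted p limit of 0.05 in this model, and had a FAKi effect of the same sign on each of the 4 days. There were 1520 of them among 15533 protein-coding genes tested, and 27897 genes of all types were tested.

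The cells were 92.1, a uveal melanoma line that carries a *GNAQ* mutation, so all values come from a single tumour line. They received 100 nM of VS-4718, a small-molecule inhibitor of FAK, or the vehicle DMSO, with fresh medium and agent every 72 h for up to 21 days, and poly(A) RNA was sequenced from 3 replicates per treatment and day. DMSO at day 0, which has no FAKi counterpart, was used only as a starting level. The study describes both plating in triplicate and repeats of the whole experiment, and the labels do not say which of these a replicate is, so that the p values measure the spread between these samples, which may be technical.

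FAK, encoded by *PTK2*, is a tyrosine kinase that is recruited to integrin clusters at focal adhesions, where it binds SRC family kinases and passes adhesion signals to small GTPase and MAP kinase pathways. In uveal melanoma, mutant Gαq activates phospholipase C and protein kinase C, which feed the ERK pathway, and activates FAK through TRIO, which feeds YAP. An inhibitor of the kinase acts on the protein and not on its transcript, and the question put to the data was which transcripts stood at another level in every window of the treatment.

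The libraries held 13135695 to 33404647 counts in FAKi and 19893568 to 43651551 counts in DMSO, so FAKi libraries were shallower on the whole, and mitochondrial genes took 10.7% to 22.1% and 5.49% to 27% of them. All 6 melanocytic markers checked were expressed in every group, with a summed level of 6006 to 10040 CPM (counts of a gene relative to the scaled library total) in FAKi and 4523 to 8971 CPM in DMSO. Some libraries stood apart from their group. DMSO day 3 replicate 1 was nearest to a library of DMSO day 0, FAKi day 7 replicate 1 was nearest to FAKi day 14 replicate 1, and DMSO day 21 replicate 3 was nearest to a library of DMSO day 3. The FAKi pair differed less than any replicates of a group, with a chi-square per degree of freedom of 1.64 beside 3.04 for the closest replicates. Whether a label of day was exchanged, or whether the pair shares its material, cannot be told from the labels. The main fit counts them as separate replicates. The counts are therefore also given without these 3 libraries, an alternative chosen after seeing the data. The column name of DMSO day 21 replicate 3 has an extra digit in its day, while its sample title gives day 21. Other libraries were also nearest to another group. DMSO day 3 replicates 2 and 3 were nearest to DMSO day 21 replicate 3. FAKi day 14 replicates 1 and 2 were nearest to FAKi day 7 replicate 1. FAKi day 7 replicate 2 was nearest to a library of the other treatment, DMSO day 7 replicate 3. *PTK2* itself was at 116 to 164 CPM in FAKi and 101.2 to 160 CPM in DMSO, with a log2 fold change of 0.04 ± 0.07 (SE), and *GNAQ* had a log2 fold change of -0.11 ± 0.09. Neither gene was called (Benjamini-Hochberg adjusted p = 0.809 and 0.476, edgeR's quasi-likelihood F test).

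Over all gene types, 2512 of 27897 genes (9%) were called, 1072 higher (3.84%) and 1440 lower (5.16%) in FAKi. Among protein-coding genes 1917 (12.3%) were called, 835 higher (5.38%) and 1082 lower (6.97%), and 1520 of these (9.79% of those tested) kept a single sign on the 4 days, 673 higher and 847 lower. A single sign on 4 days at any p was found in 22.1% of the protein-coding genes. With an absolute log2 fold change over 1 as well, 169 genes (1.09%) were left, 50 higher and 119 lower, where 0.459% and 0.742% of all genes tested passed both limits in these directions (1.2% in either). Without the 3 libraries first named above the genes of a single direction numbered 912 higher and 992 lower. Of the 1520 genes, 1399 were called again. Fewer were called when a whole day was left out, namely 851 without day 3, 1069 without day 7, 1105 without day 14 and 614 without day 21, and of the 169 genes 100 were called without day 21. With treatment alone and no day block, only 115 such genes were called.

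For 177 protein-coding genes (1.14%) the ranges of FAKi and DMSO were apart on each of the 4 days and in the same direction, and all 177 were among the 1520. Over all 12 FAKi and 12 DMSO libraries the ranges were apart for 10 genes, all protein-coding (0.0644% of these and 0.0358% of all genes tested). The effects were not of equal size over time. On days 3, 7, 14 and 21 the 673 higher genes had median log2 fold changes of 0.49, 0.38, 0.39 and 0.62, and the 847 lower genes of -0.53, -0.39, -0.36 and -0.67. Day 21 held the largest effect of 323 of the higher and 386 of the lower genes. The make-up of the libraries also differed by treatment within days. Median mitochondrial shares on days 3, 7, 14 and 21 were 17.4%, 20.3%, 21.65% and 10.7% in FAKi. In DMSO they were 9.59%, 17.5%, 26.7% and 5.49%. Ribosomal protein genes took up to 11.2% of FAKi and up to 15.7% of DMSO libraries. Whether these differences bear on the effect sizes by day was not tested.

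*ITGA9*, the integrin α9 subunit that pairs with β1 and binds tenascin C and other matrix ligands, was the higher gene with the smallest p. It was at 17.3, 29.7 and 36.5 CPM (lowest, median and highest) in the 12 FAKi libraries and at 5.57, 9.49 and 16.0 CPM in the 12 DMSO libraries. The groups did not overlap on any day or over all days. The log2 fold change was 1.39 ± 0.10 (SE, edgeR adjusted p = 9.17e-10), with 1.5, 1.43, 1.23 and 1.41 on days 3, 7, 14 and 21. The edgeR test for a difference between days gave an adjusted p of 0.877, and 0.0677 without the 3 libraries that stood apart. The gene spans 37452141 to 37823507 of chromosome 3 (hg38, plus strand), and 9.71% of its exon bases are shared with an antisense gene.

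**Figure D1:**
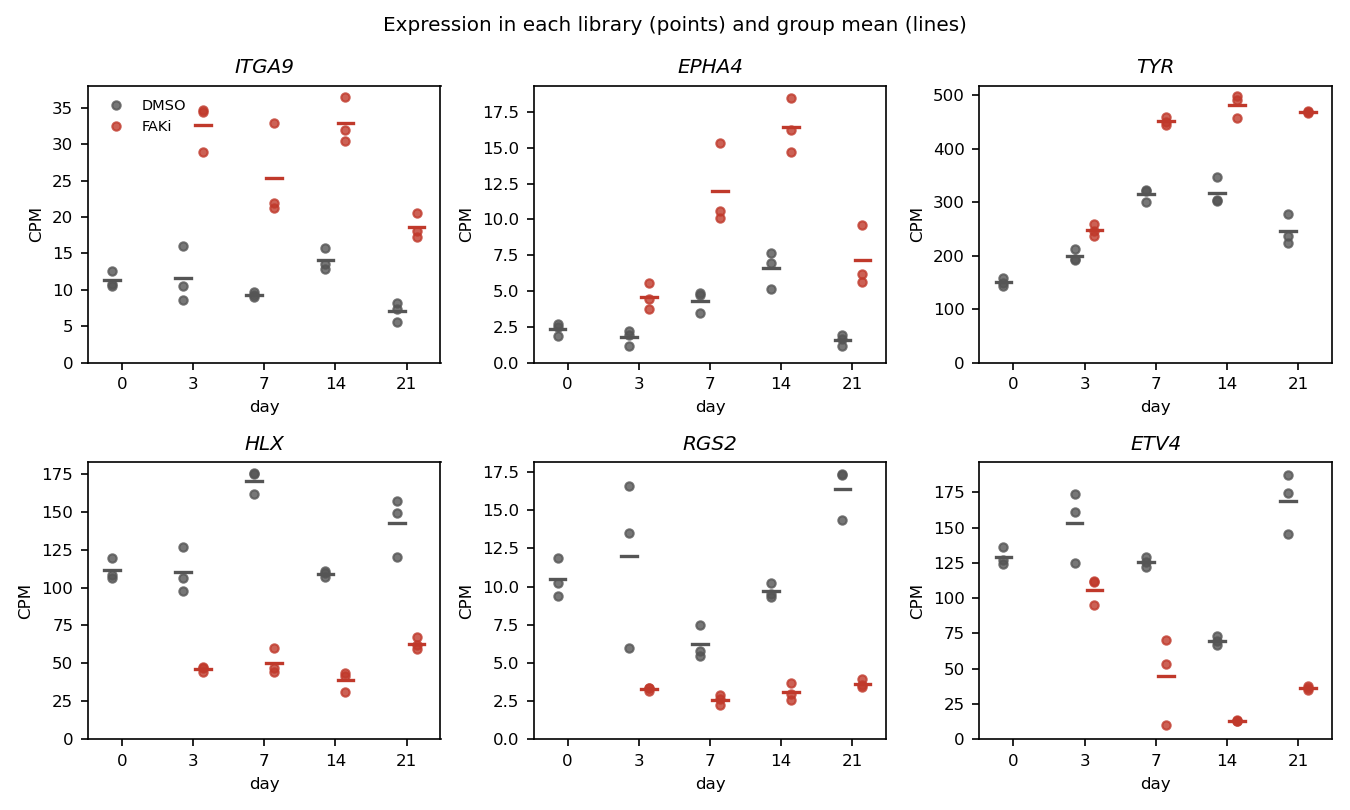
Level in CPM (linear axis from 0) of 6 genes in each of the 27 libraries by day, DMSO in grey and FAKi in red, with points for libraries and short lines for group means (n = 3). *ITGA9* stood at 17.3 to 36.5 CPM in FAKi and 5.57 to 16.0 CPM in DMSO, *HLX* at 31.0 to 67.5 CPM and 97.9 to 175 CPM, and FAKi and DMSO were apart on each of days 3, 7, 14 and 21 for all 6 genes.

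The ephrin receptors *EPHA4* and *EPHB1*, which signal on contact with ephrin-bearing cells, were also higher. *EPHA4* was at 3.73, 9.86 and 18.5 CPM with FAKi against 1.14, 2.81 and 7.68 CPM with DMSO (log2 fold change 1.57 ± 0.15, adjusted p = 8.16e-08). The ranges over all days overlapped, and both treatments moved over time, from 4.57 ± 0.925 against 1.76 ± 0.547 CPM (SD, n = 3) at day 3 to 16.5 ± 1.90 against 6.57 ± 1.32 CPM at day 14. Within each day the ranges were apart. *EPHB1* was lower in abundance, at 0.974 to 2.96 CPM in FAKi and 0.300 to 1.51 CPM in DMSO, with a log2 fold change of 1.33 ± 0.19.

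*DAB2*, an endocytic adaptor for integrins and LDL receptor family members, was at 166, 327 and 411 CPM with FAKi against 64.9, 180 and 235 CPM with DMSO, and the groups were apart on each day (log2 fold change 1.04 ± 0.10). *PRUNE2* was at 76.1, 114 and 290 CPM with FAKi against 18.9, 49.1 and 152 CPM with DMSO (1.41 ± 0.15). The cytokine precursor *IL16*, the secreted *ISM1*, the hyaluronan-binding *CEMIP* and the glycosyltransferase *GCNT1* were further genes that the naming rule picked in this direction outside the guidance families. Their log2 fold changes were 1.06 ± 0.14 for *IL16*, 1.27 ± 0.19 for *ISM1*, 1.68 ± 0.24 for *CEMIP* and 1.72 ± 0.30 for *GCNT1*. The FAKi libraries of day 7 spread widely for all of them. Day 7 FAKi means (± SD) were 53.7 ± 29.5 CPM for *IL16*, 11.2 ± 9.13 CPM for *ISM1*, 3.40 ± 2.89 CPM for *CEMIP* and 4.88 ± 3.99 CPM for *GCNT1*. For *IL16*, 46.4% of the exon bases are shared with genes on the other strand, so part of its counts may belong to them. *GCNT1* shares 8.95% of its exon bases with *PRUNE2* on the other strand. Mean levels were 3.41 CPM for *GCNT1* and 106 CPM for *PRUNE2*. Part of the *GCNT1* counts may thus belong to *PRUNE2*, and its increase may not be a separate observation.

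*HLX*, a homeobox transcription factor known from blood and gut development, had the smallest p of all genes. It was at 31.0, 47.2 and 67.5 CPM with FAKi against 97.9, 123 and 175 CPM with DMSO. No FAKi library reached the level of any DMSO library, and DMSO at day 0 (111 ± 6.95 CPM, n = 3) lay within the DMSO range. The log2 fold change was -1.41 ± 0.09 (adjusted p = 2.48e-11) and ran from -1.16 at day 21 to -1.77 at day 7. *HLX* spans 220879431 to 220885056 of chromosome 1 (plus strand), and 12% of its exon bases are shared with ENSG00000286231, a gene model that joins *HLX* to its neighbour *MTARC1*. That model was itself among the named genes (log2 fold change -1.14 ± 0.09), but all of its exon bases (100%) lie in these 2 genes, so it is not a separate observation.

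*RGS2*, which speeds GTP hydrolysis by Gαq, was at 2.23, 3.24 and 3.95 CPM with FAKi against 5.45, 9.90 and 17.4 CPM with DMSO. FAKi and DMSO did not overlap, and FAKi means stayed between 2.59 and 3.64 CPM on all days while DMSO means ran from 6.25 to 16.4 CPM. The log2 fold change was -1.74 ± 0.14 (adjusted p = 3.25e-09).

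*EEF1A2*, a tissue-restricted translation elongation factor, was at 6.57, 14.3 and 20.4 CPM with FAKi against 18.9, 42.8 and 91.9 CPM with DMSO (log2 fold change -1.78 ± 0.14). The ranges overlapped slightly over all days and were apart on each day. *CDKN1C*, the cell cycle inhibitor p57, was at 1.63, 7.51 and 11.9 CPM against 5.07, 16.4 and 40.3 CPM (-1.50 ± 0.16). The adhesion receptor *ADGRG1* (GPR56) was at 1.67, 6.004 and 9.73 CPM against 8.63, 16.9 and 23.4 CPM (-1.67 ± 0.17). *FAM43A* (-1.24 ± 0.12), the small heat shock protein *HSPB7* (-1.06 ± 0.10), the kinase *PLK2* (-1.05 ± 0.12) and *TESC*, a calcium-binding protein (-1.45 ± 0.17), were also apart on each of the 4 days.

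Several of the largest decreases were in genes of low abundance, and that of *NRCAM* is described with the effects that differed between days. *LRP2* (megalin, an endocytic receptor) was at 1.23 ± 0.352 CPM with FAKi against 2.79 ± 0.911 CPM with DMSO at day 3 and at 0.0423 ± 0.0128 against 2.63 ± 0.933 CPM at day 21, and its additive log2 fold change was -2.95 ± 0.43. *SERPINA3* (-1.98 ± 0.39) had 0 counts in all 3 FAKi libraries of day 14, and it shares 59.1% of its exon bases with ENSG00000273259, whose fold change (-2.00 ± 0.39) is thus not separate. Of the 169 genes with a log2 fold change over 1, 69 had a mean under 1 CPM, 23 of them higher and 46 lower.

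**Figure D2:**
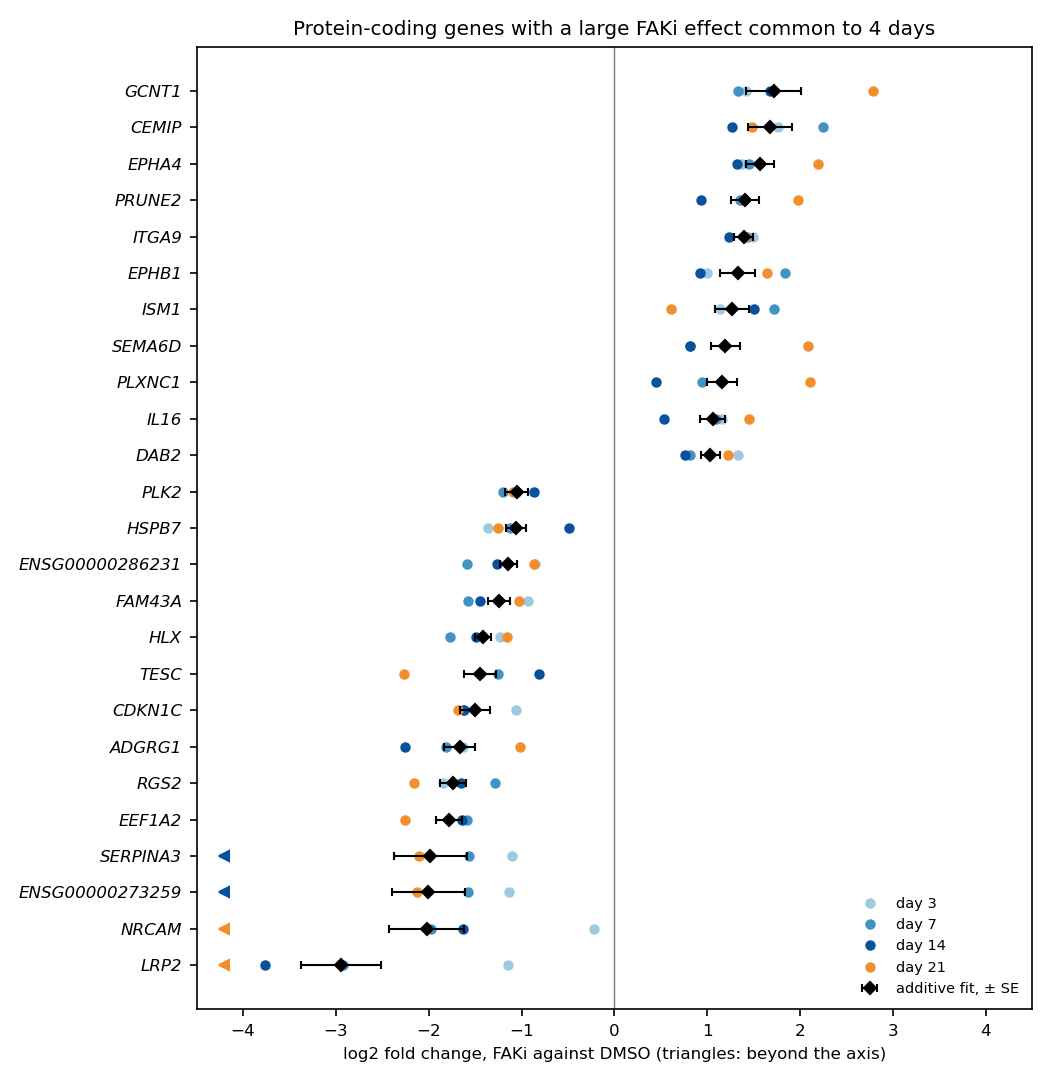
Log2 fold change of FAKi against DMSO (x axis) for 25 genes named by size or p (11 higher, 14 lower), with circles for each day and black diamonds with SE for the additive fit of 24 libraries. All circles of a gene lie on the same side of 0, which is how the genes were chosen, and 4 values beyond the axis are drawn as triangles at its left edge.

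Genes of melanocyte identity and pigment formation that were called were all higher in FAKi. Of 21 tested, 9 were called higher and none (0) lower, against 3.84% and 5.16% of all genes (5.38% and 6.97% of protein-coding genes). The list's median log2 fold change was 0.23 beside 0.00 for all genes tested. *TYR*, which encodes tyrosinase, the enzyme that starts melanin synthesis, was at 238, 458 and 499 CPM with FAKi against 191, 289 and 347 CPM with DMSO. Its means were higher at days 7 to 21 than at day 3 in both treatments, and FAKi was above DMSO on each day (log2 fold change 0.60 ± 0.08, adjusted p = 1.28e-05). *OCA2*, a melanosomal transport protein, was at 74.1, 120 and 176 CPM against 54.8, 74.6 and 95.8 CPM (0.78 ± 0.09), and the cation channel *TRPM1* at 16.5, 42.3 and 61.8 CPM against 12.4, 22.9 and 32.0 CPM (0.85 ± 0.09). Both were apart on each day. In bulk RNA, more cells of a pigmented state and more RNA per cell cannot be told apart.

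The other members called higher on 4 days were *RAB27A* and *MLPH*, which carry melanosomes to the cell edge (0.67 and 0.60), the endothelin receptor *EDNRB* (0.65), dopachrome tautomerase *DCT* (1.01) and the transporter *SLC45A2* (0.34). *SLC24A5* was called (0.49) with a negative value at day 14. The transcription factors of the lineage were not called. For *MITF* the change was 0.13 ± 0.09 on the log2 scale (edgeR adjusted p = 0.385) and for *SOX10* 0.20 ± 0.11 (adjusted p = 0.277). The same held for the abundant melanosome genes *PMEL* (0.28 ± 0.11, adjusted p = 0.114) and *TYRP1* (0.18 ± 0.10, adjusted p = 0.271). Without the 3 libraries that stood apart, 10 members were called higher and 0 lower.

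For the higher genes that carry the pigment result, and for *DAB2*, the promoters that held a searched motif are shown. Those of *OCA2* and *TRPM1* held none of the motifs (0 sites). The *TRPM1* window (chr15:31161111-31161410, minus strand) lies upstream of the gene model counted here, whose start is at 31101706. It therefore does not cover the start of the counted *TRPM1* model. RefSeq (GRCh38.p14) gave 300 bases around the start of 11983 of the tested protein-coding genes. An M-box type E-box (TCANGTG), the site bound by MITF, was searched on both strands, as were the TEAD site GGAATG and the AP-1 site TGANTCA. Promoters of other named genes were searched too. That of *PLXNC1* held AP-1 letters 91 bases before the start. Those of *HLX*, *RGS2*, *EPHA4*, *FAM43A*, *SEMA6D* and *PLK2* held no site (0). The windows of *PLXNC1*, *EPHA4* and *SEMA6D* do not cover the start of the counted models. In capitals is the E-box of *TYR* (chr11:89177625-89177924, plus strand), which begins 105 bases before the start, and in *DAB2* (chr5:39424931-39425230, minus strand) the TEAD letters, read from the other strand, 11 bases before the start.
TYR: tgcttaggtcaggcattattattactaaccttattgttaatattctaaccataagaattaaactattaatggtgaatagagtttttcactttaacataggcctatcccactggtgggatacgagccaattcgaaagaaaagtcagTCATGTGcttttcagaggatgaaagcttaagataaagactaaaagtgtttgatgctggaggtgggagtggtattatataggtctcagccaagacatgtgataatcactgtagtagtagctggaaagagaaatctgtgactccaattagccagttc
DAB2: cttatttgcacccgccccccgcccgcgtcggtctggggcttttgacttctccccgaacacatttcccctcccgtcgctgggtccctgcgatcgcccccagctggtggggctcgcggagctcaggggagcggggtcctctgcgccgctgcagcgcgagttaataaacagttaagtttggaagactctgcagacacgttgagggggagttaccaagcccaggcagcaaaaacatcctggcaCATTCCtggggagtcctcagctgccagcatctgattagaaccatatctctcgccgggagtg
An E-box of this form was in 12.1% of the matched promoters of the genes higher on 4 days, 10.5% of those of the lower genes and 12.2% of all tested protein-coding genes. The TEAD letters were in 12.3%, 11.1% and 11%, and the AP-1 letters in 3.90%, 4.98% and 4.73%. The shares among the 1520 genes thus lay near those of the tested genes for each motif. Over all 27305 promoters of this length in the RefSeq table they were 12.8%, 14% and 7.76%. Among genes with a log2 fold change over 1, the shares were 9.76%, 14.6% and 2.44% of 41 matched higher promoters. For 78 matched lower promoters they were 7.69%, 17.9% and 7.69%. Whether these differ from the tested genes was not tested.

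Targets of the ERK pathway were mostly called lower. Of 10 tested, 1 was called higher (*EPHA4*) and 6 lower (70%, beside 12.3% of protein-coding genes). The median log2 fold change was -0.56. The effect differed between days for 6 of the 10, beside 10.3% of all genes. *ETV4*, a PEA3 family transcription factor induced by ERK, was at 10.3, 36.7 and 112 CPM with FAKi against 66.97, 127 and 187 CPM with DMSO. Its groups were apart on each day, with a gap that opened from day 3 (106 ± 9.45 against 153 ± 25.6 CPM) to day 14 (13.0 ± 0.476 against 69.9 ± 2.96 CPM), and its log2 fold change was -1.66 ± 0.22 (adjusted p = 1.83e-05). At day 7 the library that resembled day 14 held 10.3 CPM of *ETV4* and the other 2 held 70.5 and 53.4 CPM.

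*EPHA2*, an ephrin receptor induced by ERK, had a log2 fold change of -0.68 ± 0.10 and changed alike on all days (-0.52, -0.76, -0.66 and -0.77). *CCND1* (cyclin D1) was at 135, 143 and 280 CPM with FAKi against 186, 282 and 355 CPM with DMSO (-0.58 ± 0.10), and *SPRY4*, a feedback inhibitor, had -0.60 ± 0.14. At day 3 the log2 fold changes of *CCND1* and *SPRY4* were small (-0.14 and -0.15). *ETV5* (-0.69) and *DUSP6* (-0.55) were called as well but had positive values at day 3 (0.13 and 0.27). *DUSP4* was not called (0.05, adjusted p = 0.801 in edgeR's test). Without the 3 libraries the list again had 1 gene called higher and 6 lower, and its median was -0.39.

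Immediate early and AP-1 genes had 1 member called higher (*KLF6*, 0.51 ± 0.09) and 6 lower of 23 tested, with a median of -0.22. The called share was 30.4%, beside 12.3% of protein-coding genes. Only *MAFF* (-0.59 ± 0.09) and *FOSB* (-0.94 ± 0.19) of the 6 were lower on all 4 days, and *NR4A1*, *IER2*, *JUND* and *FOSL2* were not. The effect differed between days for 11 of the 23. *EGR1*, for example, ranged from -0.54 at day 7 to 2.41 at day 14.

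**Figure D3:**
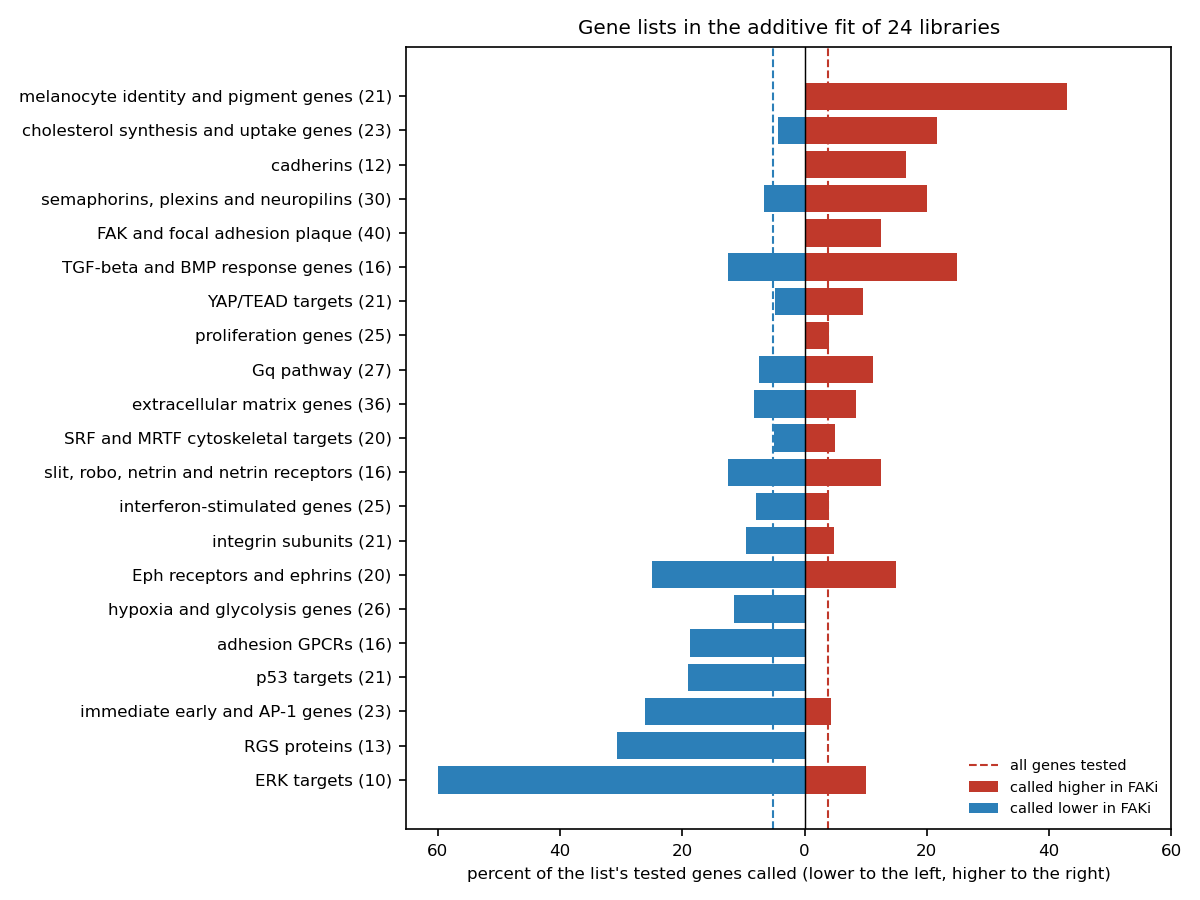
Share of each list's tested genes (number in brackets) called higher, to the right in red, and lower, to the left in blue, in the additive fit of 24 libraries. Dashed lines mark the shares over all 27897 genes (3.84% higher, 5.16% lower). Among protein-coding genes the shares were 5.38% and 6.97%. The melanocyte list (9 of 21 higher) and the ERK list (6 of 10 lower) reach farthest.

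The regulators of G protein signalling (RGS proteins), which switch off Gα subunits, had 4 members called lower and 0 higher of 13 tested. The called share was 30.8%, beside 12.3% of protein-coding genes. All 4 were lower on each day. Besides *RGS2* they were *RGS16* (-0.86 ± 0.15), *RGS10* (-0.79 ± 0.15) and *RGS3* (-0.40 ± 0.08). The same 4 to 0 split was found without the 3 libraries. The Gq pathway list of 27 genes had 3 called higher and 2 lower (18.5%, beside 12.3% of protein-coding genes). *PRKCA*, a protein kinase C isoform, was higher by 0.48 ± 0.11 and *PRKCH* by 0.27 ± 0.08, and *TEAD1*, a DNA-binding partner of YAP, by 0.49 ± 0.16. *RAC1* was lower on 4 days (-0.38 ± 0.12), with most of the difference at day 21 (-0.99).

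Of 40 tested genes of FAK and the focal adhesion plaque, 5 were called higher and 0 lower, with a median of 0.02 (12.5% called, near the 12.3% of protein-coding genes). Among these were *CAV1* (caveolin, 0.52 ± 0.09), *TLN2* (a talin that links integrins to actin, 0.60 ± 0.12), the CAS family scaffold *NEDD9* (0.48 ± 0.13) and *GIT2* (0.26 ± 0.08). Among 21 integrin subunits (14.3% called), *ITGA9* was called higher and *ITGA3*, a laminin receptor subunit (-0.52 ± 0.10), and *ITGA7* (-0.57, not of a single sign) lower. The cadherins *CDH7* (0.68 ± 0.08) and *CDH19* (0.67 ± 0.10) were the 2 called of 12 (16.7%), both higher and both apart on each day. *CDH7* was at 49.1, 53.5 and 59.0 CPM with FAKi against 23.99, 37.0 and 43.3 CPM with DMSO, so no library of either treatment crossed. The adhesion receptors of the GPCR class had 3 called lower of 16 (18.8%), *ADGRG1*, *ADGRE5* (-0.40 ± 0.08) and *ADGRD1* (-1.04 ± 0.28).

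Of 21 YAP and TEAD targets tested, 3 were called (14.3%, beside 9% of all genes and 12.3% of protein-coding genes). *FOXF2* (0.75 ± 0.14) and *ASAP1* (0.52 ± 0.15) were called higher and *NT5E* (-1.26 ± 0.28) lower, and the median was 0.04. The commonly used reporters *CCN1* (0.43 ± 0.17, adjusted p = 0.108) and *CCN2* (-0.47 ± 0.35, adjusted p = 0.427) were not called by edgeR's test. SRF and MRTF targets of the actin cytoskeleton had *ACTA2* called higher (0.55 ± 0.18) and *CNN2* lower of 20 (10%). Both calls were lost with the 3 libraries left out (edgeR adjusted p = 0.0863 for *ACTA2*). *ACTA2* shares 38.3% of its exon bases with an antisense gene.

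Guidance families held members called in both directions. Of 30 semaphorins, plexins and neuropilins, 6 were called higher and 2 lower (26.7%, beside 12.3% of protein-coding genes). The list was named in the study for these same samples and so is not independent evidence. *SEMA6D* (1.20 ± 0.16), *PLXNC1* (1.16 ± 0.16), *SEMA6A* (0.85 ± 0.12), *NRP2* (0.51 ± 0.11) and *PLXNA1* (0.32 ± 0.10) were higher on 4 days and *SEMA3C* (0.81 ± 0.25) was called but negative at day 21. Against these, *SEMA6B*, of the same class as *SEMA6A* and *SEMA6D*, was at 1.28, 4.17 and 6.45 CPM with FAKi against 2.30, 10.96 and 16.6 CPM with DMSO (-1.21 ± 0.15), and *PLXNA2*, a receptor for class 6 semaphorins, had -0.86 ± 0.16. *PLXNA2* was at 9.06 ± 1.14 against 31.1 ± 6.17 CPM at day 21 but at 15.2 ± 0.614 against 17.1 ± 1.51 CPM at day 14.

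Of 20 Eph receptors and ephrins, 3 were called higher and 5 lower (40%, beside 12.3% of protein-coding genes). Beside *EPHA4* and *EPHB1*, *EPHA7* was called higher at a mean of 0.624 CPM and was not of a single sign. *EPHA2*, *EPHA8* (at or under 0.259 CPM in every FAKi library), *EPHB2* (-0.46 ± 0.11), *EFNA2* (-0.47 ± 0.12) and *EPHA1* (-0.68 ± 0.19) were lower on 4 days. In the slit, robo and netrin list of 16 (25% called), *NTNG1* (1.58 ± 0.33) and *ROBO2* (0.58 ± 0.14) were higher. *NTN4* (-0.68 ± 0.20) and *UNC5D* (-1.50 ± 0.48) were lower, and these 2 lower calls were lost without the 3 libraries.

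The matrix genes had 3 called in each direction of 36 (16.7%, beside 12.3% of protein-coding genes). The laminin chains went apart, with *LAMA3* (0.90 ± 0.20) higher and *LAMB1* (-0.26 ± 0.07) and *LAMB3* (-1.04 ± 0.28) lower. Of 16 TGF-beta and BMP response genes, 37.5% were called. The BMP-induced *ID2* (0.91 ± 0.10), *ID3* (0.50 ± 0.15) and *SMAD9* (0.78 ± 0.15) were higher on 4 days and *PMEPA1* (-0.61 ± 0.17) was among those lower. The call of *ID3* was lost without the 3 libraries (edgeR adjusted p = 0.0893). Of 21 p53 targets, 4 were called lower (19%) and 0 higher, and *PLK2* and the stress cytokine *GDF15* (-1.61 ± 0.23) were lower on each day. Cholesterol genes had 5 called higher and 1 lower of 23 (26.1%), led by the synthase *HMGCS1* (1.07 ± 0.21). Its day 7 mean was 146 ± 169 CPM in FAKi against 47.0 ± 3.98 CPM in DMSO, a spread wider than the difference, and 46.7% of its exon bases are shared with a gene on the other strand.

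In the remaining lists the called shares are to be read beside the 9% of all genes and the 12.3% of protein-coding genes. Interferon-stimulated genes had 1 called higher (*STAT2*, 0.54 ± 0.09) and 2 lower (*IFI44L*, -0.76 ± 0.17, and *ISG20*, -0.73 ± 0.21) of 25 (12%). Hypoxia and glycolysis genes had 3 called lower of 26 (11.5%), among them *HK1* (-0.54 ± 0.09) and *ANKRD37* (-0.49 ± 0.13). *ANKRD37* shares 63% of its exon bases with a gene on the other strand. Of 25 proliferation genes only *FOXM1* (0.57 ± 0.16) was called, and it was negative at day 21, whereas for 15 of the 25 the effect differed between days. Of the markers of other cell types, *KRT18* (-1.07 ± 0.17) and *KRT8* (-0.86 ± 0.18) fell on 4 days, the 2 called of 4 tested, and the epithelial list of 7 summed to 5.96 to 21.3 CPM in FAKi and 8.62 to 53.4 CPM in DMSO, with 5 members under 1 CPM. *KRT8* shares 83.4% of its exon bases with *KRT18*. The endothelial and fibroblast lists had 0 called, and the leukocyte list had *CD68* lower (-0.50 ± 0.15) with 6 of 7 members under 1 CPM. The retinal pigment epithelium list had 0 called and held *BEST1* at a mean of 1315 CPM.

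A common direction did not mean a common size. The FAKi effect differed between days for 2881 of all genes (10.3%) and 2193 protein-coding genes (14.1%), and for 128 of the 1520 genes of a single direction (8.42%). Without the 3 libraries 10510 genes differed, so this count rests on them. The 5 genes of a single direction with the smallest p in that test were *CD36*, *NRCAM*, *CKB*, *FABP3* and *CAPN3*. *CD36*, a fatty acid transporter, was at 208 ± 16.6 against 259 ± 47.0 CPM at day 3 and at 40.4 ± 3.56 against 224 ± 35.8 CPM at day 21. *CKB*, the brain creatine kinase, was at 61.5 ± 10.3 against 81.04 ± 7.42 CPM at day 14 and 63.8 ± 5.84 against 466 ± 104 CPM at day 21. *FABP3*, a fatty acid binding protein, was at 19.97 ± 2.24 against 84.5 ± 16.9 CPM at day 21, and *CAPN3* at 55.0 ± 1.73 against 154 ± 4.198 CPM. *NRCAM*, a neuronal adhesion molecule, was lower after day 3 in both treatments and stood at 0.292 ± 0.309 CPM with FAKi against 18.6 ± 6.50 CPM with DMSO at day 21. In all 5 the largest effect was at day 21.

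Levels in DMSO also moved over the 21 days. Among the 100 genes with a log2 fold change over 1 and a mean of at least 1 CPM, the DMSO means of days 3 to 21 spanned more than the FAKi effect in 22 of 27 higher and 52 of 73 lower genes. The median span was 2.02 and 1.91 on the log2 scale, beside median effects of 1.15 and 1.25. *HLX* (span 0.64), *PLK2* (0.53) and *ITGA9* (0.99) were exceptions, with DMSO levels that moved less than the FAKi effect. *CKB* (2.52) and *EPHA4* (2.06) were not.

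**Figure D4:**
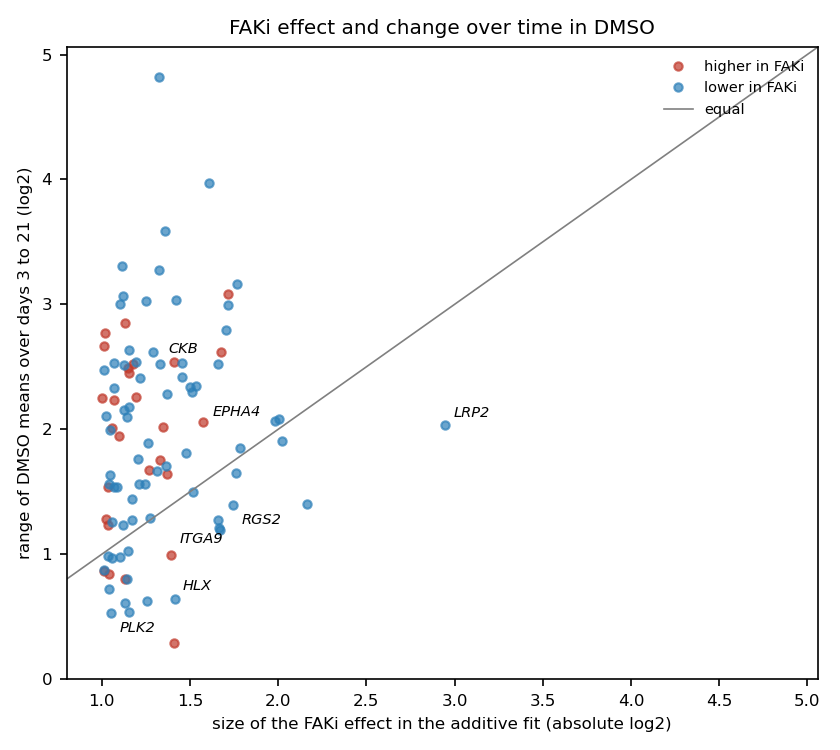
Absolute log2 fold change in the additive fit (x axis) against the log2 range of the 4 DMSO day means (y axis) for the 100 genes with a log2 fold change over 1 and a mean of at least 1 CPM, higher genes in red and lower genes in blue. Most points, 22 of 27 and 52 of 73, lie above the line of equality.

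At the edge of the call, *ATIC* was the last gene of a single sign inside the limit (log2 fold change -0.24 ± 0.08, adjusted p = 0.0496 in edgeR's test) and *GMDS* the first outside (-0.31 ± 0.10, adjusted p = 0.0501).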

How the data were processed

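Raw counts per gene were deposited by the authors as a table of 27 columns, all matched to samples by label, with 0 columns left over. The submitters' processing notes and the file header name Trim Galore, FastQC 0.11.8, STAR 2.5.3a, hg38, HOMER's analyzeRepeats.pl on exons of GENCODE 39 and DESeq2. No strand setting appears on the counting command, although the kit marks strand, so genes with overlapping exons are uncertain. Replicates were not pooled.

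The 24 libraries of days 3 to 21 were fitted in edgeR 4.0.16 (R 4.3.3), in place of the study's DESeq2, with day and treatment as terms. A gene needed at least 20 counts over these libraries, TMM factors set the scale, and quasi-likelihood tests were adjusted by Benjamini-Hochberg over all 27897 genes. Signs per day came from a fit with a mean per treatment and day, and differences between days from the 3 treatment by day terms. CPM values were scaled with TMM over 27 libraries. SE is the log2 fold change divided by the square root of F. Fits were tested on simulated data. Counts carry sampling noise as well as replicate spread, and the shallowest fitted library held 13135695 counts. Exon overlaps used GENCODE 44.

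The genes and lists were chosen with earlier results of these data known. Named were the 10 genes with the smallest p and the 5 with the largest change in each direction (mean of at least 1 CPM, log2 fold change over 1), *PTK2* and *GNAQ*, up to 3 members per list and direction, members beside counts of 5 or fewer, the 5 genes that differed most between days, and the 2 at the threshold. *CCN1*, *CCN2*, *MITF*, *SOX10*, *PMEL*, *TYRP1*, *EGR1*, *DUSP4* and further list members outside this rule were named after their values were seen. Some genes that the rule gave are not reported here. Alternatives were RLE and upper quartile scaling, 3 other count filters, DESeq2 1.42.0, each library and each day left out, replicate blocks and an adjusted p of at most 0.01. Added after seeing the data were the fits without 3 libraries, without the day block, with thinned counts and without mitochondrial genes.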

Additional observations from a re-analysis of the deposited data

Results flagged for a closer look

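The FAKi effect differed between days, by the treatment by day test of edgeR with Benjamini-Hochberg adjustment, for 2881 genes. Of the genes that the naming rule gave, 21 were among them and are given here. Effects were larger at day 21 than at day 3 in *CD36* (-0.30 at day 3 and -2.46 at day 21, adjusted p = 1.56e-06), *NRCAM* (-0.22 at day 3 and -5.91 at day 21, adjusted p = 3.61e-06), *CKB* (-1.28 at day 3 and -2.85 at day 21, adjusted p = 3.28e-05), *FABP3* (-0.38 at day 3 and -2.06 at day 21, adjusted p = 3.28e-05), *CAPN3* (-0.10 at day 3 and -1.47 at day 21, adjusted p = 0.000177), *NT5E* (-0.29 at day 3 and -3.56 at day 21, adjusted p = 0.000293) and *LRP2* (adjusted p = 0.0074). The adjusted p of this test was 0.000345 for *PLXNA2*, 0.00313 for *HK1*, 0.00764 for *ADGRD1*, 0.00784 for *PLXNC1*, 0.0176 for *OCA2*, 0.0198 for ENSG00000286231, 0.0214 for *ID3*, 0.0228 for *ETV4*, 0.0345 for *CCND1*, 0.0376 for *HSPB7*, 0.0394 for *MAFF*, 0.0418 for *RAC1*, 0.0445 for *KLF6* and 0.0498 for *SEMA6D*. All kept a single sign on the 4 days, as the rule that chose them asks.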

How the results depend on the processing

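For the 90 genes that the naming rule gave, the direction was kept in each alternative that could be computed (0 reversals), of 40 run. All but *PTK2* and *GNAQ* were chosen for a single sign on the 4 days in these same libraries. Reversals were thus unlikely from the start, and their absence is not independent support. Of the 90 genes, 14 did not pass the filter of at least 10 counts in every library. Other list members named in the text were not followed. The call of a gene was lost in 283 of the comparisons and gained in 15, all 15 for *GMDS*. Genes near the threshold such as *ACTA2*, *UNC5D*, *ATIC*, *PRKCH*, *TEAD1*, *NTN4* and *ID3* lost it in the most settings. Many genes far from the threshold also lost their call, and only in the fit without a day block. There the edgeR adjusted p was 0.244 for *PLXNC1*, 0.244 for *GDF15*, 0.119 for *SEMA6D* and 0.0742 for *ETV4*. *HMGCS1* lost its call in DESeq2. The main counts were 1072 higher and 1440 lower genes, 128 and 207 with a log2 fold change over 1, 673 and 847 protein-coding genes of a single direction, and 2881 that differed between days. DESeq2 gave 1609 higher genes and 5219 that differed between days. No count filter gave 4831 that differed between days, and at least 10 counts in every library left 25 higher and 53 lower genes with a log2 fold change over 1. An adjusted p of at most 0.01 gave 334 and 479, then 43 and 104, then 263 and 364, and 794 in that order. Leaving out day 3 gave 647 and 807, day 7 gave 644 higher, and day 14 gave 312 lower genes with a log2 fold change over 1, 1469 lower genes of a single direction and 461 that differed between days. Leaving out day 21 gave 532 and 517, then 59 and 90, 372 lower genes of a single direction and 739 that differed. Without the 3 libraries that stood apart there were 1743 and 2238, and 10510 that differed. With no day block there were 55 and 83, then 13 and 39, then 41 and 74.

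With each library left out in turn, the counts ran from 710 to 1421 higher and 997 to 1875 lower, from 77 to 187 and 157 to 267 with a log2 fold change over 1, from 485 to 859 and 645 to 972 of a single direction, and from 1574 to 6046 that differed between days. FAKi day 21 replicate 3 gave the 710 higher genes, and higher genes with a log2 fold change over 1 moved by over 1.5 times without it (77), DMSO day 21 replicate 2 (81), DMSO day 3 replicate 3 (83) or FAKi day 7 replicate 1 (83). Genes that differed between days moved as much without DMSO day 3 replicate 1 (5127), DMSO day 21 replicate 3 (6046) or FAKi day 7 replicate 1 (4486), and were 1574 to 1890 without any of FAKi day 3 replicates 2 and 3, FAKi day 14 replicates 1 and 2, DMSO day 21 replicates 1 and 2 and FAKi day 21 replicates 2 and 3. Of the 169 genes with a log2 fold change over 1 and a single direction, 145 to 167 stayed called. 

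Replicate numbers were not shown to pair libraries, since 4 of 12 correlations of deviations were over 0.1 (range -0.144 to 0.658). All 3 of day 21 were (0.442, 0.128 and 0.658). The column names carry a tag equal to the replicate number, whose meaning is not given. The block of 12 pairs gave 715 higher and 962 lower genes and 78 higher genes with a log2 fold change over 1, and 1137 of the 1520 genes were called. The additive replicate block gave 873 and 1241. No scaling moved the median of all genes by over 0.1, and the share of higher calls stayed between 40.3% and 43.6% under scaling and thinning. Depth limits the 69 large effects under 1 CPM.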
